A study of Nicotiana tabacum with 9 samples.

Results

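The 7 genes described here act in the synthesis, breakdown or signalling of cytokinin, auxin and abscisic acid, and were taken by their identifiers from the authors' gene tables for AmMIXTA and NtZFP8, out of 1884 genes in either table. They are cytokinin dehydrogenase 3-like (LOC107799019), the two-component response regulator ARR12-like (LOC107769400), the cytokinin riboside phosphoribohydrolase LOG8-like (LOC107784101), the auxin-induced protein ARG7-like (LOC107779885), the auxin-responsive protein IAA32-like (LOC107764089), tryptophan aminotransferase-related protein 2-like, called TAR2-like below (LOC107767293), and ABSCISIC ACID-INSENSITIVE 5-like protein 2 (LOC107815582), called ABI5-like protein 2. Every gene of these tables has a listed peak, so the presence of a peak at each of the 7 comes from the way they were chosen.

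Binding was measured by DNA affinity purification sequencing, in which a tagged protein made in wheat germ extract is fixed to beads and mixed with sonicated genomic DNA, and the fragments it retains are read by sequencing. The 9 samples fell into 3 groups of 3 replicates: Halo-tagged AmMIXTA, an R2R3-MYB factor of snapdragon, Halo-tagged NtZFP8, a tobacco zinc finger protein, and Halo-tagged nuclear-targeted GFP (nlsGFP) as the negative control. All groups shared the same kind of DNA, from leaf primordia of wild-type Nicotiana tabacum, cultivar Petit Havana SR1. The DNA carried no chromatin proteins and the proteins were made outside the plant, so the values tell of binding to bare DNA and not of the activity of a gene. The series was made to find the genes these proteins bind in early glandular trichome formation.

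Cytokinins, auxin and abscisic acid are plant hormones whose local level is set by the balance of synthesis, activation, conjugation and breakdown, and whose signal ends in transcription factors. Cytokinin promotes cell division and, in Arabidopsis, acts on trichome initiation together with gibberellin through C2H2 zinc finger proteins, ZFP8 among them. Auxin drives cell expansion and organ outgrowth in young leaves, and abscisic acid acts in drought responses and closes stomata.

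The values are the authors' own, 1 peak shape score per peak against nlsGFP, with no value per replicate. The score has no unit and ranks peaks within the list of a protein. The authors kept as hits the peaks that scored above 2. The replicate spread of a score is therefore unknown and no difference could be tested, and values of AmMIXTA and NtZFP8 next to each other are a description. Read depth per sample is unknown. The full lists held 29197 peaks for AmMIXTA and 20957 for NtZFP8, and neither list reached below a score of 1.64. Both lists were called against the same nlsGFP samples. Positions are those of the authors' files, on NCBI scaffolds of the tobacco genome of Sierro and colleagues.

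Binding by AmMIXTA was listed at all 7 genes and passed the criterion at 6 of them, and binding by NtZFP8 was listed and passed at 5. Among all genes of the tables, 72.0% of 1662 passed for AmMIXTA and 77.4% of 974 passed for NtZFP8. These are shares of listed genes, so they stand beside 6 of 7 and 5 of 5 hormone genes. With so few genes, the counts cannot be told apart from the shares of the tables. Cytokinin dehydrogenase 3-like, ARG7-like, TAR2-like and ABI5-like protein 2 passed for both proteins, which 31.5% of the 1884 genes did. LOG8-like passed for NtZFP8 only, with AmMIXTA listed under the criterion. ARR12-like and IAA32-like passed for AmMIXTA and were not listed for NtZFP8. Of the 1662 genes listed for AmMIXTA, only 752 were also listed for NtZFP8. Above a score of 3 there were 3 of the hormone genes for AmMIXTA and 3 for NtZFP8, beside 37.2% and 46.4% of all genes of the tables. The median of the highest scores was 2.89 over the 7 hormone genes for AmMIXTA, against 2.55 over all genes of its table. For NtZFP8 it was 3.07 over the 5 listed hormone genes, against 2.90 over its table.

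**Figure D1:**
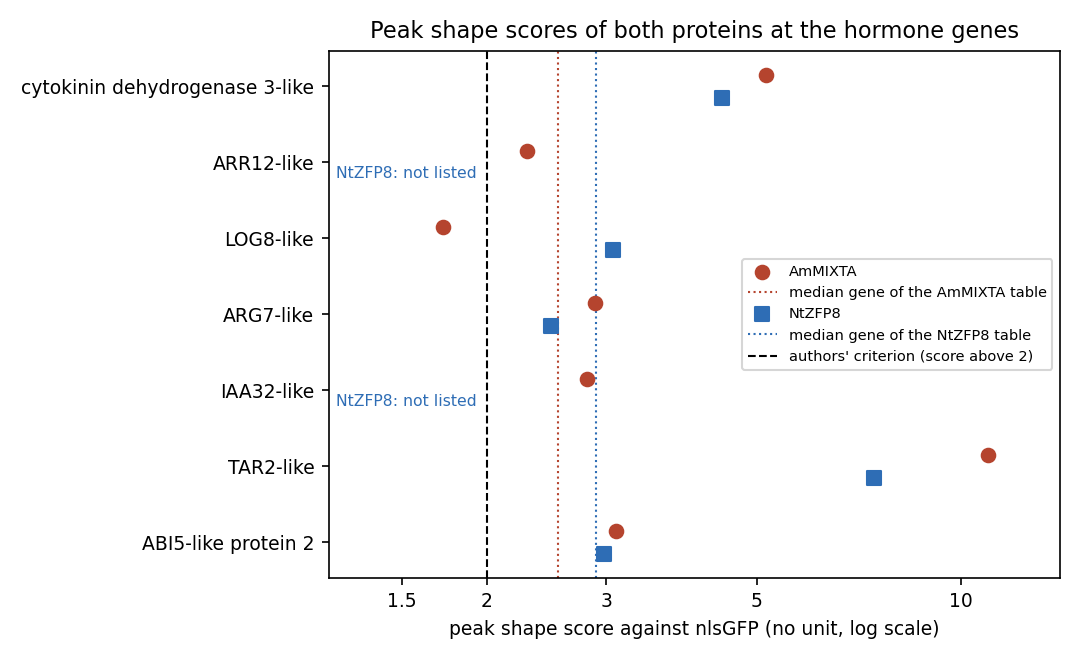
Peak shape score against nlsGFP (x axis, log scale, no unit) of the peak assigned to each of the 7 hormone genes, with AmMIXTA as red circles and NtZFP8 as blue squares. TAR2-like stands highest for both proteins, at 10.97 and 7.44, LOG8-like is the only gene with its AmMIXTA circle left of the dashed criterion at 2, and 2 genes have no NtZFP8 square.

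Of the genes that set the level of cytokinin, cytokinin dehydrogenase 3-like codes for an enzyme that breaks cytokinins down by cleaving their side chain. Its AmMIXTA peak had a score of 5.16 and lay at NW_015930534.1:12464-12890, and its NtZFP8 peak had a score of 4.44 and lay at NW_015930534.1:12592-12884. Both stood in the upper part of their tables: 85.5% of AmMIXTA genes and 73.1% of NtZFP8 genes had lower highest scores. The p-values in the authors' deposited tables were 1.2e-07 for AmMIXTA and 4.59e-06 for NtZFP8. The whole NtZFP8 peak, 293 bp, lay inside the AmMIXTA peak of 427 bp, and the centres were 17 bp apart. No further peak of either protein was listed on this scaffold.

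LOG8-like belongs to the LONELY GUY family, enzymes that turn inactive cytokinin nucleotides into the free, active base. It was the only one of the 7 with a higher score for NtZFP8: its AmMIXTA peak scored 1.72, under the criterion, and its NtZFP8 peak scored 3.07. The AmMIXTA score was near the bottom of its table, with 8.36% of genes lower, while 54.8% of the NtZFP8 genes were lower. The peaks did not overlap. AmMIXTA covered NW_015910622.1:9539-9870 and NtZFP8 covered NW_015910622.1:9909-10322, with a gap of 38 bp between them and 334 bp between their centres. Of the 752 genes found in both tables at any score, 38 (5.05%) had no overlap between the peaks of the proteins. The NtZFP8 peak at LOG8-like was also broad, at 414 bp, and 97.9% of all NtZFP8 peaks were narrower. Its centre stood at 33.7% of its width, left of the interquartile range of 44.7% to 50.2% over the NtZFP8 list.

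ARR12-like is named after an Arabidopsis type-B response regulator, a transcription factor at the end of the cytokinin signalling chain. It had an AmMIXTA peak with a score of 2.30 at NW_015788053.1:1064-1517, lower than the score of the median gene, with 41.1% of the AmMIXTA genes below it. No NtZFP8 peak was listed anywhere on this scaffold. The AmMIXTA peak was the only peak listed there, and nothing was listed beyond position 1517, so little can be said of the surroundings of this gene.

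Of the auxin genes, TAR2-like had the highest score of the 7 for each protein. In Arabidopsis the enzymes of this family turn tryptophan into indole-3-pyruvate, a step of the main route of auxin synthesis. The AmMIXTA peak scored 10.97 at NW_015887378.1:23347-23693 and the NtZFP8 peak scored 7.44 at NW_015887378.1:23435-23679. TAR2-like ranked at position 79 of 1662 genes for AmMIXTA and at position 125 of 974 for NtZFP8. In the authors' deposited tables the p-values, which restate these scores, were 2.58e-28 for AmMIXTA and 5e-14 for NtZFP8. The NtZFP8 peak, 245 bp wide, lay wholly inside the AmMIXTA peak of 347 bp, and their centres were 12 bp apart. The ratio of the AmMIXTA score to the NtZFP8 score was 1.47, above the interquartile range of 0.866 to 1.32 over the 593 genes that passed for both.

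ARG7-like is named after an auxin-induced gene of mung bean from the SAUR family, small proteins whose transcripts rise quickly with auxin. Its AmMIXTA peak scored 2.89 at NW_015905609.1:54969-55401, and its NtZFP8 peak scored 2.49 at NW_015905609.1:55092-55436. The peaks shared 310 bp and their centres were 4 bp apart. Their rank differed between the tables: 59.1% of AmMIXTA genes and 41.2% of NtZFP8 genes were lower.

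IAA32-like carries the name of an Arabidopsis member of the Aux/IAA family, whose proteins repress auxin response factors. It had an AmMIXTA peak with a score of 2.81 at NW_015882277.1:40469-40965. At 497 bp this was the broadest of the AmMIXTA peaks at the 7 genes, and 91.3% of all AmMIXTA peaks were narrower. The nearest NtZFP8 peak of the scaffold had its centre 39947 bp away and scored 1.65, under the criterion. IAA32-like and ARR12-like were thus listed for AmMIXTA at scores of 2.81 and 2.30 with no NtZFP8 peak over them at 1.64 or more. Most genes of the AmMIXTA table had no line in the NtZFP8 table. The share of them with no NtZFP8 peak over them in the full list was not worked out here.

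ABI5-like protein 2 belongs to the bZIP transcription factors that bind abscisic acid response elements, and a gene table of another tobacco assembly (ASM71507v2) gives it the synonym ABF1. It had nearly equal scores, 3.10 for AmMIXTA at NW_015789503.1:17046-17392 and 2.98 for NtZFP8 at NW_015789503.1:17132-17400. The peaks shared 261 bp and the centres were 3 bp apart, the closest of the 5 genes with peaks of both proteins. Its score was above that of 64.6% of AmMIXTA genes and 52.7% of NtZFP8 genes.

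At all 4 genes that passed for both proteins the peaks overlapped. Nearly all such genes did the same: of the 593 genes past the criterion for both, 572 (96.5%) had overlapping peaks. The centres at these 4 genes were 3 to 17 bp apart, against a median of 13 bp over the 593 genes (interquartile range 6 to 25). All 4 had the higher score for AmMIXTA, by a ratio of 1.04 at ABI5-like protein 2, 1.16 at ARG7-like, 1.16 at cytokinin dehydrogenase 3-like and 1.47 at TAR2-like. Over the 593 genes the AmMIXTA score was the higher for 57.3%, with a median ratio of 1.06. For each protein TAR2-like came first and cytokinin dehydrogenase 3-like second. ABI5-like protein 2, ARG7-like, IAA32-like, ARR12-like and LOG8-like followed for AmMIXTA, and LOG8-like, ABI5-like protein 2 and ARG7-like for NtZFP8. With no spread known, neighbours in either order cannot be told apart.

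**Figure D2:**
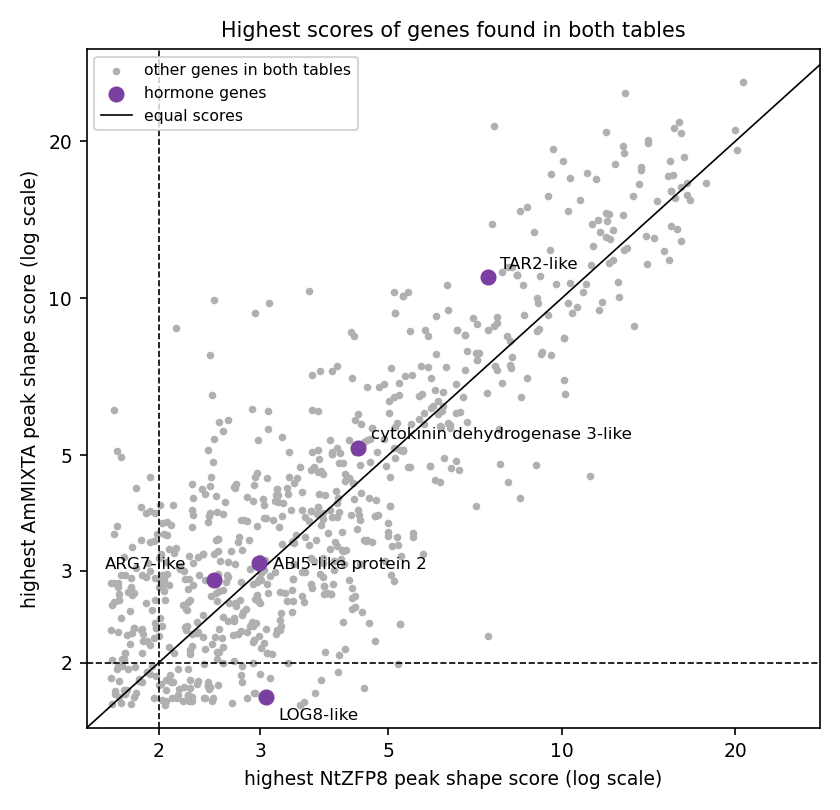
Highest AmMIXTA score (y axis) against highest NtZFP8 score (x axis), both on log scales, for the 752 genes found in both tables, with the 5 hormone genes among them in purple. Cytokinin dehydrogenase 3-like, TAR2-like, ARG7-like and ABI5-like protein 2 lie above the line of equal scores, and LOG8-like lies below it and under the dashed AmMIXTA criterion.

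At the 4 overlapping genes the AmMIXTA peak began 86 to 128 bp before the NtZFP8 peak, in the direction of the scaffold's numbering, while the ends lay within 35 bp of each other. AmMIXTA peaks were wider in the whole lists too, with a median of 385 bp past the criterion against 286 bp for NtZFP8. The centre of the AmMIXTA peak stood between 52.9% and 70.0% of its width at the 7 genes, against a median of 61.2% over the AmMIXTA list (interquartile range 53.4% to 66.0%), and lay outside that range at LOG8-like (52.9%), cytokinin dehydrogenase 3-like (66.7%) and IAA32-like (70.0%). The NtZFP8 centre stood between 33.7% and 48.0% at the 5 listed genes, against a median of 47.2% over the NtZFP8 list, and lay left of its interquartile range at LOG8-like and at ARG7-like (40.4%). The lists as a whole thus had their AmMIXTA centres further along the peak than their NtZFP8 centres.

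**Figure D3:**
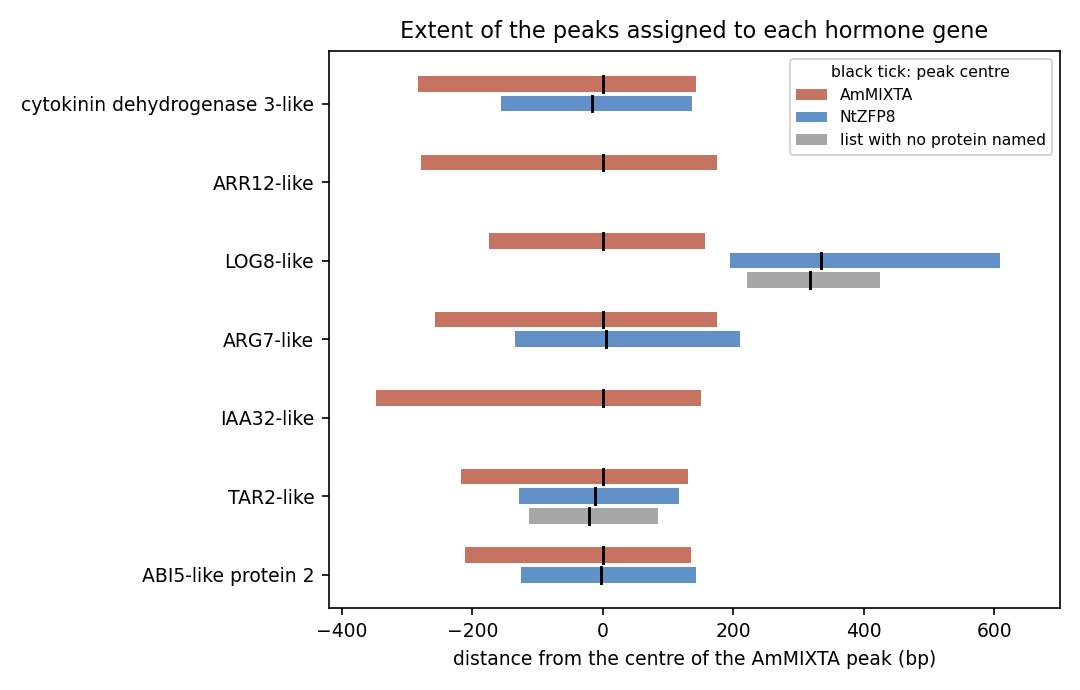
Extent of the peaks assigned to each hormone gene, as distance in bp from the centre of its AmMIXTA peak, with AmMIXTA in red, NtZFP8 in blue, the list that names no protein in grey and a black tick at each centre. The NtZFP8 bar lies within or over the AmMIXTA bar at 4 genes and begins 38 bp after it at LOG8-like.

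A further list of 618 peaks, deposited with both proteins and naming neither, gives distances to genes, and it named 2 of the 7. At TAR2-like its peak (NW_015887378.1:23451-23648, score 4.34) was classed as promoter, with a listed 5′ distance of 692 bp. This peak of 198 bp lay wholly inside the AmMIXTA and the NtZFP8 peak, with its centre 21 bp from that of AmMIXTA and 9 bp from that of NtZFP8. At LOG8-like its peak (NW_015910622.1:9935-10137, score 1.71) was classed as within the gene, at a distance of 0 bp. All its 203 bp lay inside the NtZFP8 peak and none inside the AmMIXTA peak, and its centre was 16 bp from that of NtZFP8. Over the whole list 454 peaks (73.5%) overlapped an AmMIXTA peak and 539 (87.2%) an NtZFP8 peak. For the other 5 genes the position of the peak within or beside the gene was not recorded in the sources used here.

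Few other peaks lay near the hormone genes. No further peak of either protein past the criterion had its centre within 5000 bp of theirs at any of the 7 genes, and none at any listed score. Such a further peak past the criterion was present for 6.26% of the 1884 genes, and at any listed score for 7.7%, so its absence is common. Within 20000 bp there were 3 further peaks, at 2 of the 7 genes, against 13.3% of all genes with any. On the scaffolds of cytokinin dehydrogenase 3-like, ARR12-like, LOG8-like and TAR2-like no further peak was listed at all. Lone peaks were common: 79.2% of the 21197 scaffolds with an AmMIXTA peak held only 1. For NtZFP8 the share was 76.0% of 13913 scaffolds.

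The scaffold of ARG7-like held the highest scores on any of the 7 scaffolds. At 14.7 kb from the ARG7-like peak, AmMIXTA scored 13.9 (69684 to 70081) and NtZFP8 scored 11.3 (69792 to 70082), and these peaks overlapped by 290 bp. Both tables assign them to LOC107779887, which is uncharacterized. An AmMIXTA peak with a score of 2.43 lay 27.8 kb to the other side, with no NtZFP8 peak over it. On the scaffold of IAA32-like the only other peaks overlapped each other 39.9 kb away, at 1.96 for AmMIXTA and 1.65 for NtZFP8, both under the criterion.

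The scaffold of ABI5-like protein 2 was the fullest, with 5 further peaks, all past the criterion and none assigned to a gene in the tables. AmMIXTA had peaks with scores of 2.09, 2.77 and 2.94, and NtZFP8 had peaks with scores of 3.07 and 2.27. The AmMIXTA peak of 2.94 and the NtZFP8 peak of 2.27 overlapped by 263 bp, and the other 3 overlapped no peak of the other protein. The nearest of the 5 was the AmMIXTA peak of 2.09, at 7347 bp. The remaining 4 lay 23.1 to 25.8 kb from the gene's peaks.

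**Figure D4:**
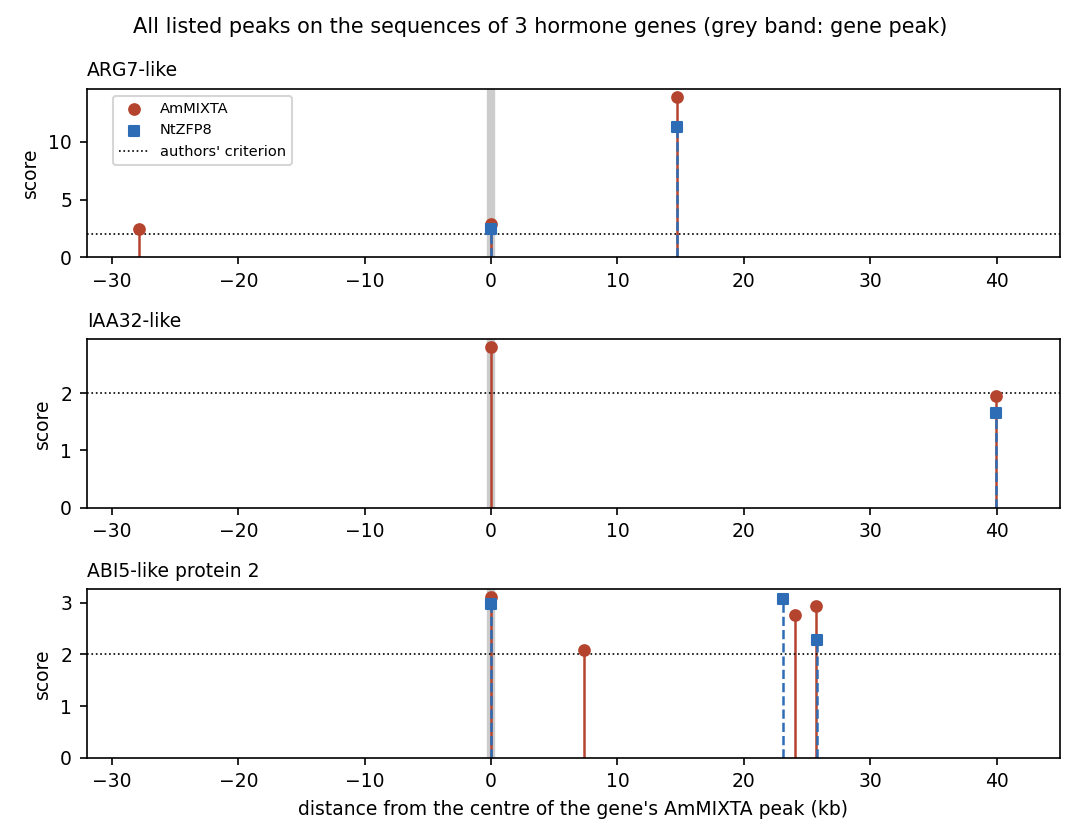
Peak shape scores (y axis, no unit) of every listed peak on the scaffolds of ARG7-like, IAA32-like and ABI5-like protein 2, by distance in kb from the gene's AmMIXTA peak (grey band), with AmMIXTA as red circles and NtZFP8 as blue squares. The scores of 13.9 and 11.3 at 14.7 kb from ARG7-like stand far above those at the gene, which are 2.89 and 2.49.

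The wider hormone lists, made of words in the deposited gene descriptions, held 15 genes, the 7 and 8 others. Of the 8 others, 5 were listed for AmMIXTA, of which 4 passed, and 6 were listed for NtZFP8, of which 3 passed. The cytokinin list had 6 genes, of which 5 passed for AmMIXTA and 4 for NtZFP8, with median scores of 3.73 over the 6 listed and 5.25 over the 4 listed. Its highest scores were at a pair of purine permease 3-like genes, of a family that in Arabidopsis includes transporters of adenine and cytokinins. LOC107788140 had 19.2 for AmMIXTA and 20.2 for NtZFP8, and LOC107804577 had 9.26 for AmMIXTA and 6.06 for NtZFP8, with a second NtZFP8 peak at 2.49. The highest peaks of the proteins overlapped at both, with centres 16 and 6 bp apart. Zeatin O-xylosyltransferase-like (LOC107777316), of a family that conjugates the cytokinin zeatin with a sugar, had 2.14 for AmMIXTA and was not listed for NtZFP8.

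The auxin list had 4 genes, of which 3 passed for AmMIXTA and 2 for NtZFP8, with median scores of 2.89 and 2.49 over the 3 listed for each. Besides the 3 described above, it held auxin-induced protein PCNT115-like (LOC107772004), which had 1.71 for NtZFP8, under the criterion, and was not listed for AmMIXTA.

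The abscisic acid list had 5 genes, of which 2 passed for AmMIXTA and 2 for NtZFP8. Median scores were 2.84 over the 3 listed for AmMIXTA and 2.38 over the 4 listed for NtZFP8. Abscisic acid 8'-hydroxylase 1-like (LOC107798887), of the enzymes that break abscisic acid down, had a peak of 2.84 for AmMIXTA, while its NtZFP8 peak, at 1.70, did not pass, and the centres were 3289 bp apart. ABA-inducible protein PHV A1-like (LOC107773639) had 5.17 in the NtZFP8 table and no line in the AmMIXTA table. An AmMIXTA peak with a score of 2.98 nevertheless lay over it in the full list, with its centre 38 bp away. The abscisic acid receptor PYL4-like (LOC107759771) had 1.81 for AmMIXTA, and zeaxanthin epoxidase (LOC107763949), which acts early in the synthesis of abscisic acid, had 1.79 for NtZFP8. Neither passed, and neither was listed for the other protein. Over the 15 genes 10 passed for AmMIXTA and 8 for NtZFP8, of 12 and 11 listed (83.3% and 72.7%), beside the 72.0% and 77.4% of the tables.

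The genes nearest to each hormone gene in their pair of highest scores, by distance on the log2 scale among 520 other described genes of both tables, came from many functions. Nearest to TAR2-like were pre-mRNA-splicing factor slt11-like (LOC107821025, 11.5 for AmMIXTA and 8.08 for NtZFP8, distance 0.135), transcription factor bHLH101-like (LOC107828347, 11.5 and 8.19, distance 0.153) and elongation factor 1-delta 1-like (LOC107812526, 11.1 and 8.35, distance 0.167). Nearest to cytokinin dehydrogenase 3-like were coatomer subunit zeta-2-like (LOC107828257, distance 0.014), a mitochondrial ATP synthase subunit 9 (LOC107786393, 0.0201) and K(+) efflux antiporter 4-like (LOC107817284, 0.0349). Nearest to LOG8-like were the receptor-like kinase At2g24130 (LOC107777114, distance 0.0239), WRKY transcription factor 40 (LOC107801001, 0.0673) and non-lysosomal glucosylceramidase-like (LOC107816091, 0.0703). For ARG7-like the nearest was a glutathione S-transferase (LOC107789895, distance 0.0745), followed by alpha-1,4-glucan-protein synthase (LOC107776808, 0.0774) and autophagy-related protein 18b-like (LOC107781078, 0.0867). For ABI5-like protein 2 it was a trichome birefringence-like gene (LOC107816582, distance 0.0499), followed by TIFY 6B-like (LOC107807057, 0.0633) and a chloroplastic polyribonucleotide nucleotidyltransferase (LOC107817790, 0.103). Likeness here rests on 2 numbers per gene.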

How the data were processed

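DNA affinity purification sequencing was done on 9 samples. Filtered reads were aligned to the tobacco genome of Sierro and colleagues (98% mapped on average), per the series' design text, and hits were called by the authors against nlsGFP at a peak shape score above 2 and p below 0.05. Neither the aligner nor the peak caller is named in the sources used here, nor is how replicates were joined. The score and the p-value are the authors' deposited values, 1 per peak.

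Each line of the deposited gene tables was joined to its peak by scaffold and centre, and all lines joined. The unrounded AmMIXTA score was used, so 1196 genes passed. NtZFP8 scores are deposited to 2 decimals. Blank NtZFP8 descriptions (160 lines) were taken from other lines of the same gene. Regions running past a scaffold's start or around its end were kept to the first part. Peaks overlapped from 1 bp. Neighbouring peaks had centres within 5000 bp of a gene's own.

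The genes and word lists were chosen with earlier results of these data known. Named are the 7 genes, all genes of the word lists and the 3 genes nearest in score to each gene found in both tables. Stricter scores (above 3), every listed score, an overlap of 50% of each peak and windows of 2000 and 20000 bp were tried. No sequence is printed, because no genome or sequence table of the build was used here, and planned promoter words and protein comparisons were not run. Of the 7 identifiers, 5 were found in the gene table of assembly ASM71507v2. Python 3.11.15, pandas 2.3.3, numpy 2.4.6 and matplotlib 3.10.9 were used, with the overlap rule tested on simulated data.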

Additional observations from a re-analysis of the deposited data

How the results depend on the processing

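No paired analysis was possible because the lists hold 1 value per peak and none per replicate, and for the same reason no replicate could be left out. With a score above 3, the hormone genes past it numbered 3 for AmMIXTA, 3 for NtZFP8 and 2 for both, cytokinin dehydrogenase 3-like and TAR2-like. ABI5-like protein 2 fell out for NtZFP8 alone, at 2.98. In the wider lists a score above 3 left 3 cytokinin genes for AmMIXTA, 1 auxin gene for each protein and 1 abscisic acid gene for each. At every listed score the abscisic acid list held 4 NtZFP8 genes. The window of 20000 bp gave 3 neighbouring peaks. The other alternatives, 16 of 26, left each count within 1.5 times its value, among them an overlap of 50% of each peak, which 4 hormone genes met as at 1 bp (91.4% of the 593 genes that passed for both). Depth is unknown, so a gene not listed for a protein cannot be told from a gene bound below what could be called.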

Other observations

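Some genes tied to the same hormones under other words, looked up after the values were seen, gave further values. Only ABC transporter B, WAT1-related and protein phosphatase 2C genes were looked up, so this is not a full account of hormone genes. ABC transporter B family member 19-like (LOC107800765), named after an Arabidopsis exporter of auxin, had a peak of 2.28 for AmMIXTA that overlapped an NtZFP8 peak of 1.80, which did not pass, with centres 19 bp apart. ABC transporter B family member 14-like (LOC107818390) had 1.65 for AmMIXTA, under the criterion. WAT1-related protein At4g08300-like (LOC107822193), of a family that in Arabidopsis includes a vacuolar auxin transporter, had a peak of 6.10 for AmMIXTA over an NtZFP8 peak of 1.67 that did not pass, with centres 39 bp apart. WAT1-related protein At2g39510-like (LOC107760849) had 1.69 for AmMIXTA.

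Protein phosphatases 2C include negative regulators of abscisic acid signalling, although the descriptions do not say which of these genes belong to them. Of the 9 in the tables, 8 were listed for AmMIXTA, of which 6 passed, and 6 for NtZFP8, of which 4 passed, beside 72.0% and 77.4% of all genes of the tables. Of the 9, 4 passed for both proteins, beside 31.5% of the 1884 genes. They were the same 4 that passed for NtZFP8. Of all 754 genes that passed for NtZFP8, 593 passed for both. A gene described as protein kinase and PP2C-like domain-containing protein (LOC107825832) had 8.83 for AmMIXTA and 7.64 for NtZFP8. LOC107790556 had 7.27 for AmMIXTA and 7.71 for NtZFP8, LOC107830771 had 6.56 for AmMIXTA and 7.42 for NtZFP8, and LOC107795993 had 6.22 for AmMIXTA and 6.21 for NtZFP8. At these 4 genes the peaks overlapped, with centres 4 to 34 bp apart.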
